A study of Mus musculus with 11 samples.

Results

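The genes described here are 10 genes of the non-muscle actin cytoskeleton, chosen by name among 47517 gene names, of which 15821, all 10 among them, passed the filter on low counts. They are the actins Actb and Actg1, the actin-binding proteins Pfn1, Cfl1, Tmsb10 and Tmsb4x, the myosin II subunits Myh9 and Myl6, and the tropomyosins Tpm1 and Tpm4. Actb was chosen because it varies between these libraries, so its values are given as a description and no test of it is reported. RNA was taken from forelimb buds of C57BL/6 mouse embryos at E10.5. The control group was Gmnn +/f; Prx-Cre (5 libraries) and the mutant group was Gmnn f/f; Prx-Cre (6 libraries), so both groups carried the Cre transgene and at least 1 floxed Gmnn allele. Prx-Cre is active in limb mesenchyme, and ectoderm, endothelium and blood cells of the bud lie outside its usual domain. The libraries came from 4 litters. By litter, controls 1 and 2 and mutants 1 and 2 belonged to A, and control 5 with mutants 3 and 4 to D. Litter B gave 1 embryo of each genotype (control 3, mutant 6), as did litter C (control 4, mutant 5).

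Actin monomers join into filaments that carry cell shape, division and movement. Profilin and the beta-thymosins bind monomers, cofilin severs and disassembles filaments, non-muscle myosin II pulls on filaments, and tropomyosins lie along them and control which proteins bind. In many cells, a fall in free monomers releases Mrtf cofactors, which join Srf on the CArG box, a short sequence near several cytoskeleton genes. Actb is also widely used as a reference gene on the assumption that its level is stable.

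The CArG box was searched on both strands in RefSeq promoter windows (GRCm38.p6, 250 bases before to 50 after a start site), because it is the known link between actin monomers and actin gene transcription. Windows were found for 9 of the 10 genes, the exception being Actb. Of their 12 windows, 2 held the box, that of Actg1 and 1 of the 2 of Myl6, against 535 of all 32851 windows (1.63%). Both are shown with capitals marking the box, on the gene's strand. The Actg1 stretch lies on the minus strand at chr11:120348566-120348595 and its box begins at -90 from the start site. That of Myl6 lies on the minus strand at chr10:128493040-128493069, with the box at -50.
Actg1: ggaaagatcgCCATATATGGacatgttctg
Myl6: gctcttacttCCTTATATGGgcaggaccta
These are matches of letters, and occupancy by Srf was not measured here.

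Library totals were 14777833 to 19733288 counts in controls and 14721181 to 17034741 in mutants, of which the 10 genes took 1.449% to 3.127% and Actb alone 0.9285% to 2.56%. Gmnn, the targeted gene, was at 180 ± 40.2 CPM in controls (SD, n = 5) and 115 ± 16.1 CPM in mutants (SD, n = 6), where CPM are counts scaled to the library total after TMM scaling of that total. The groups did not overlap for Gmnn (log2 difference -0.67, SE 0.10, edgeR quasi-likelihood adjusted p = 0.0291). With 1 library left out, the adjusted p ran from 0.0105 to 0.139 and passed without control 1, control 5 or mutant 2. Counts over all its exons do not separate recombined from intact alleles. Markers of the labelled tissue were present: 6 limb mesenchyme markers summed to 492 to 648 CPM in controls and 503 to 584 in mutants, and the forelimb gene Tbx5 ran from 64.8 to 123 CPM in the 11 libraries. Markers of other cells were present in all libraries. Their sums were 81.8 to 128 CPM in controls and 60.6 to 117 in mutants for endothelium, 140 to 274 and 150 to 272 for ectoderm, and 8.06 to 34.5 and 13.9 to 46.8 for macrophages. The 6 red blood cell markers summed to 12998 to 33385 CPM in controls and 16280 to 56076 in mutants. Mutant 2 was the highest library for them and also for Cfl1, Tmsb10, Tmsb4x and Myl6, and the part of red cells in those levels was not tested. In tissue libraries, fewer cells of a type and less RNA per cell cannot be told apart.

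Scaled by exon length and library total (TPM), Actb was the most abundant of the 10 in both groups, with a mean of 18114 ± 6369 TPM in controls (SD, n = 5) and 9446 ± 2554 in mutants (SD, n = 6). In controls the mean TPM levels then fell in the order Cfl1 (3042), Tmsb4x (1993), Pfn1 (1316), Tmsb10 (745), Tpm4 (621), Myl6 (451), Tpm1 (157), Myh9 (19.8) and Actg1 (4.05). Each neighbour in that order was separated from the next by more than their SDs. The SDs do not cover sequence shared with other genes, whose reads can be lost in counting. The share of 50-base words also found in other genes ran from 0% for Pfn1, Tmsb4x and Tpm1 to 49.5% for Myl6. It was 37.4% for Actg1, 27.0% for Tmsb10 and 20.5% for Cfl1. The ranking is thus one of counted reads, and the loss was not tested. The mutants kept this order except around Pfn1, whose mean of 760 ± 517 TPM could not be placed apart from Tmsb10 (809 ± 84.6) or Tpm4 (567 ± 61.3), and Tpm4 and Myl6 (478 ± 37.5) also lay within their SDs of each other.

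Actb encodes cytoplasmic beta-actin (chr5:142903115-142906754, minus strand, mm10). It stood at 25139, 18908, 24937, 21624 and 10317 CPM in controls 1 to 5. In the mutants it ran from 9404 to 16444 CPM with a median of 10787. The groups overlapped only through control 5, which lay among the mutants. Mutant 5, at 16444 CPM, stood above the 11339 of the next mutant and below the other 4 controls. Mean levels were 20185 ± 6087 CPM in controls (SD, n = 5) and 11426 ± 2576 in mutants (SD, n = 6), and the fitted log2 difference was -0.72 (SE 0.16).

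Litter by litter, the Actb log2 difference between mutants and controls was -1.05 in litter A, -1.15 in B, -0.40 in C and -0.07 in D. It was thus lower in mutants in each of the 4 litters, by little in litter D, where the control embryo had a level as low as that of its mutant littermates. Leaving out 1 library at a time gave fitted differences of -0.92 to -0.60.

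Actg1 encodes gamma-actin, the other cytoplasmic actin (chr11:120345690-120348542, minus strand). It was counted at 3.86, 4.38, 4.85, 3.89 and 5.89 CPM in controls 1 to 5 and at 3.12 to 5.26 CPM in mutants, with a median of 4.59. The groups overlapped, with a log2 difference of -0.11 (SE 0.16, edgeR adjusted p = 0.746). Only 806 reads were assigned to Actg1 in the 11 libraries together, against 2873583 to Actb. Of the 50-base words in Actg1 transcripts, 37.4% also occurred in transcripts of 23 other genes, and 147 of its exon bases (5.5%) overlapped exons of 2 other genes, Gm23419 and Mir6935. Reads of that kind are open to loss in counting, so its level is uncertain, and how many were lost was not tested.

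**Figure D1:**
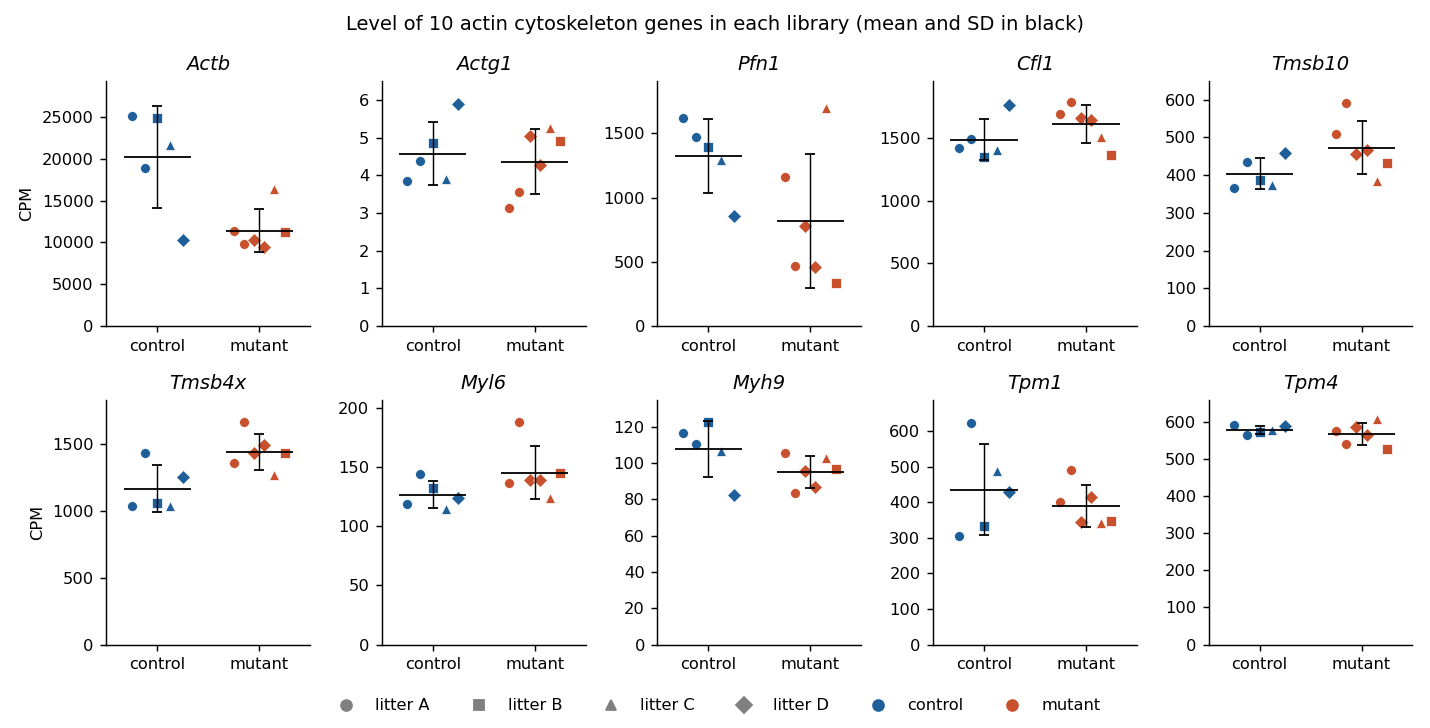
Level of each of the 10 genes in CPM (vertical axes, linear, from 0) in the 5 control and 6 mutant libraries, 1 point per library, with marker shape for litter and a black bar for the mean with its SD. Actb and Pfn1 spread widely in one or both groups, Tpm4 stays between 527 and 607 CPM, and the groups overlap in every panel.

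Among the monomer-binding genes, Pfn1 had the widest spread of the 10. Pfn1 encodes profilin, which loads actin monomers onto growing filament ends (chr11:70651850-70654644, minus strand). Its controls were at 1617, 1474, 1395, 1291 and 856 CPM, and its mutants ran from 338 to 1696 CPM with a median of 622.5. The lowest library, mutant 6, and the highest, mutant 5, both belonged to the mutant group, and all 5 controls lay between them.

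The fitted log2 difference of Pfn1 was -0.77 (SE 0.30) and did not pass (edgeR adjusted p = 0.173). Leaving out 1 library gave -0.48 (without control 3 or mutant 6) to -1.05 (without control 4 or mutant 5). It was -1.07 in litter A, -2.04 in litter B, 0.39 in litter C and -0.52 in litter D. Litter C thus went the other way from the rest. A genotype by litter term for Pfn1 did not pass (edgeR adjusted p = 0.95), in a test with little power at 1 embryo of each genotype in litters B and C.

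Tmsb4x and Tmsb10 encode the beta-thymosins, small proteins that hold actin monomers in reserve. Tmsb4x (chrX:167207093-167209315, minus strand) was at 1032, 1431, 1058, 1039 and 1255 CPM in controls 1 to 5 and at 1267 to 1662 CPM in mutants, with a median of 1433. The groups overlapped only through control 2, which lay at the median of the mutants. The log2 difference was 0.30 (SE 0.09, edgeR adjusted p = 0.0921), with values of 0.31, 0.44, 0.29 and 0.22 in litters A to D.

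Tmsb10 (chr6:72957347-72958748, minus strand) was at 365, 435, 386, 374 and 459 CPM in controls 1 to 5 and at 385 to 590 CPM in mutants, with a median of 460. The groups overlapped from 385 to 459 CPM, and the log2 difference was 0.21 (SE 0.09, adjusted p = 0.200). In litters A to D the difference was 0.46, 0.16, 0.04 and 0.00, largest in litter A.

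Cfl1 encodes cofilin 1, which severs filaments (chr19:5490485-5494029, plus strand). Its controls were at 1421, 1490, 1344, 1404 and 1761 CPM and its mutants at 1365 to 1785 CPM, with a median of 1652. Control 5 stood with the highest mutants and mutant 6 with the controls. The log2 difference of 0.10 (SE 0.07) was within this spread (edgeR adjusted p = 0.469).

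Myh9 and Myl6 encode a heavy chain and the essential light chain of non-muscle myosin II. Myh9 (chr15:77760587-77842175, minus strand) was at 116, 111, 122.5, 106 and 82.5 CPM in controls 1 to 5 and at 83.4 to 105 CPM in mutants, with a median of 96.2. Control 5 was the lowest of all 11 libraries and the other 4 controls lay above every mutant. The log2 difference was -0.14 (SE 0.09, edgeR adjusted p = 0.402). It was negative in litters A, B and C (-0.28, -0.34 and -0.05) and positive in litter D (0.14).

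Myl6 (chr10:128490860-128493875, minus strand) was at 119, 144, 133, 115 and 124 CPM in controls 1 to 5 and at 124 to 188.5 CPM in mutants, with a median of 139.6. Mutant 2 was the highest library and the others overlapped. The log2 difference was 0.20 (SE 0.09, adjusted p = 0.218), and it was 0.30, 0.13, 0.11 and 0.17 in litters A to D. Of the 50-base words in Myl6 transcripts, 49.5% occur in transcripts of 5 other genes, and how many of its reads this removed from the count was not tested.

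The tropomyosin genes contrasted in spread. Tpm1 (chr9:67022590-67049406, minus strand) was at 305, 622, 332, 488 and 429.5 CPM in controls 1 to 5 and at 343 to 490 CPM in mutants, with a median of 373.6. Control 2 was the highest library and controls 1 and 3 the lowest, and the log2 difference was -0.15 (SE 0.16, edgeR adjusted p = 0.626). Control 2 was also the library with the most smooth muscle markers: the 5 markers summed to 230 CPM there, with Acta2 at 165 and Tagln at 48.4 CPM, while Acta2 was between 3.29 and 20.9 CPM in the other 10 libraries. The part of these cells in the Tpm1 level was not tested.

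Tpm4 (chr8:72134975-72153142, plus strand) was the steadiest of the 10. It was at 590, 563, 573, 577 and 588 CPM in controls 1 to 5 and at 527 to 607 CPM in mutants, with a median of 570. The groups overlapped, with a log2 difference of -0.03 (SE 0.06, adjusted p = 0.783). Its exons share 134 bases (6.1%) with an antisense gene, Gm26586, and strand was not used in counting.

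Taking the 9 genes other than Actb, 0 passed an adjusted p of 0.05 (edgeR quasi-likelihood test over 15821 genes), where 2.18% of all genes tested passed, 1.48% lower and 0.702% higher in mutants. At an unadjusted p under 0.05 there were 4 of 9, Pfn1, Tmsb10, Tmsb4x and Myl6, against 21.4% of all genes. DESeq2 called 1 of the 9, Tmsb4x (adjusted p = 0.027), and 1194 of the 15821 genes, where edgeR called 345. The groups overlapped for 9 of 9, where 2.59% of all genes had groups that did not overlap (1.3% with controls above, 1.29% with mutants above). Of the 9, 5 had a negative and 4 a positive difference, with a median log2 difference of -0.03 against 0.0038 for all genes.

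Tmsb4x, Tmsb10 and Myl6 were higher in mutants in 4 of 4 litters, Tmsb10 by only 0.004 in litter D, and no other gene of the 9 had 1 direction in every litter. The share of all genes with 1 direction in 4 litters was not counted, so this is a description. Some reference genes had it too, such as Ppia (higher) and Tubb5 (lower). A difference in genotype effect between litters was not detected for any of the 9: the smallest adjusted p for interaction was 0.95, also the smallest over all genes, of which 0% passed. Litters B and C held 1 embryo of each genotype, so this test had little power and does not show that the litters agreed. The litter term itself gave a smallest adjusted p of 0.38 among the 9 (0 of 9 at an unadjusted p under 0.05), with 0.0885% of all genes passing.

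**Figure D2:**
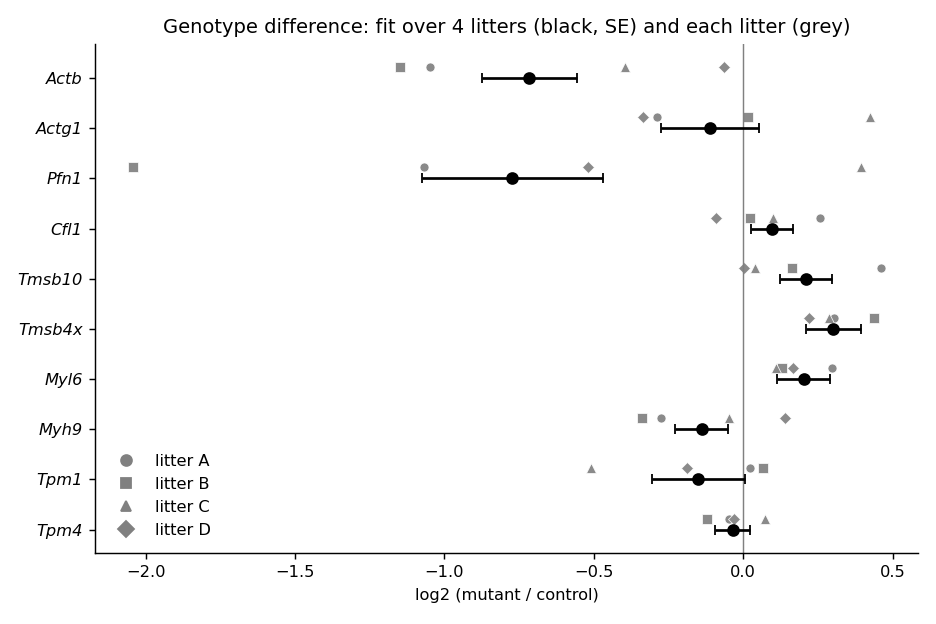
Log2 of mutant over control (horizontal axis) for the 10 genes, with the fit over 4 litters in black (bar: SE) and the difference within each litter in grey (shape: litter). Litters spread most for Pfn1, from -2.04 to 0.39, and Tmsb4x lies above 0 in each of the 4 litters.

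The spread of the 10 genes over all 11 libraries set Actb and Pfn1 apart. The coefficient of variation (CV, SD over mean of the CPM) was 40.6% for Actb and 46.9% for Pfn1, with the highest library 2.67 and 5.02 times the lowest. Among the 3771 genes of at least 50 CPM, the median CV was 11.5% and the 95th percentile 27.6%, and 1.54% and 1.06% of genes had a CV at least as high as Actb and Pfn1. The rank of Actb reflects its choice for spread in these libraries and is a description. Tpm1 came next at 22.8%. Tmsb4x (15.7%), Tmsb10 (15.1%), Myl6 (14.5%), Myh9 (13.1%) and Cfl1 (10.4%) lay closer to the median, and Tpm4 at 4.03% was below 99.3% of these genes. Actg1, with a CV of 18.3%, is below 50 CPM and was not ranked.

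The CV of Actb was set beside that of 16 genes often used as references. Actb was chosen for its spread in these libraries, so a lower CV in the others follows largely from that choice. All 16 had a lower CV than Actb, from 5.18% for Eef1a1, a translation elongation factor, to 25.9% for Tubb5, a beta-tubulin, with a median of 12.8%. Tbp (5.64%), the TATA-binding protein, and Tuba1a (6.87%), an alpha-tubulin, were also steady. Tubb5 was the only one of the 16 called between genotypes (log2 difference -0.51, SE 0.11, edgeR adjusted p = 0.0419), and its level followed that of Actb with r = 0.98. Leaving out 1 library ended the Tubb5 call unless it was control 5 or mutant 2, and with the T-run index, described with the T runs, its difference was -0.16 (adjusted p = 0.421).

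Whether the other genes followed Actb was asked over the 11 libraries on log2 CPM. Myh9 and Pfn1 varied in the same direction as Actb (r = 0.88, adjusted p = 0.00315, and r = 0.77, adjusted p = 0.0152, two-sided permutation test with 100000 resamples, adjusted over 9 relations). Tmsb4x (r = -0.82, adjusted p = 0.00747), Tmsb10 (r = -0.80, adjusted p = 0.00747) and Cfl1 (r = -0.78, adjusted p = 0.0152) went the opposite way in the same permutation test. Myl6 (r = -0.55), Tpm4 (r = 0.35), Tpm1 (r = -0.12) and Actg1 (r = -0.06) did not pass, the smallest adjusted permutation p being 0.105. So 5 of 9 relations passed, 2 positive and 3 negative. The test shuffled all 11 libraries freely, without regard to genotype or litter, so its p-values may also be too small. With litter as a block (litter means removed) these 5 passed and 2 more did, Myl6 (r = -0.72, adjusted p = 0.0139) and Tpm4 (r = 0.66, adjusted p = 0.0376, permutation test). That permutation shuffled the 11 values freely, although the removal ties values of the same litter together. Its p-values are therefore too small, and it does not settle the 2 added relations.

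Ranks gave the same 5 genes. Spearman's rho with Actb was 0.94 for Myh9 (permutation adjusted p = 0.0009), 0.78 for Pfn1 (0.0145), -0.82 for Tmsb10 (0.0117), -0.81 for Tmsb4x (0.0117) and -0.71 for Cfl1 (0.0315). For the others rho was -0.57 (Myl6), 0.33 (Tpm4), -0.43 (Tpm1) and -0.14 (Actg1), with adjusted permutation p of 0.106 or more. Removing litter and genotype means left 3 relations past the threshold, Myh9 (r = 0.87, adjusted p = 0.00468), Tmsb10 (r = -0.82, adjusted p = 0.00648) and Cfl1 (r = -0.72, adjusted p = 0.0385, permutation test). Pfn1 (r = 0.66, adjusted p = 0.0531), Tpm1 (r = -0.64, adjusted p = 0.0531), Tpm4 (r = 0.64, adjusted p = 0.0564) and Tmsb4x (r = -0.60, adjusted p = 0.0627) did not pass in that permutation test. It too shuffled values freely that the removal had tied together, so its p-values are too small and the 3 relations are less certain than printed. After the same removal, 23.0% of the 15820 other genes tested had r above 0.5 and 21.2% had r below -0.5.

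The Actb levels leave a gap between 6 libraries at 9404 to 11339 CPM, which are control 5 and mutants 1, 2, 3, 4 and 6, and 5 libraries at 16444 to 25139 CPM, which are controls 1 to 4 and mutant 5. Without controls 1 and 3, the libraries farthest from the Actb median, r was 0.79 for Myh9, 0.73 for Pfn1, -0.68 for Cfl1, -0.72 for Tmsb10 and -0.67 for Tmsb4x. Within the 6 lower libraries alone, r was 0.78 for Myh9 (exact permutation p = 0.0931) and 0.29 for Pfn1 (exact p = 0.539). It was -0.49 for Cfl1, -0.48 for Tmsb4x and -0.28 for Tmsb10 (exact permutation p of 0.338 to 0.637). Actb varies little among these 6, so the values say little for or against a relation there. The other cluster has only 5 libraries and was not tested.

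**Figure D3:**
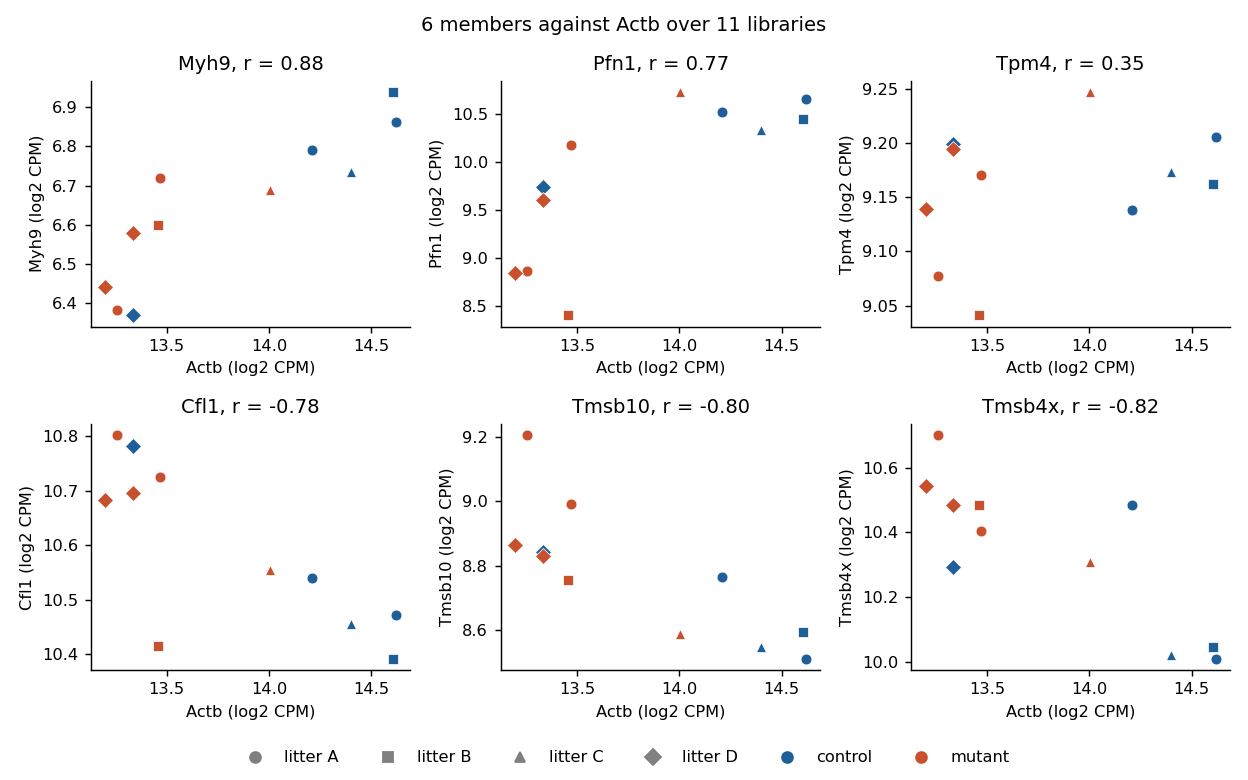
Log2 CPM of 6 of the genes (vertical axes) against log2 CPM of Actb (horizontal axes), 1 point per library, with colour for genotype and shape for litter. Myh9 and Pfn1 climb with Actb, Cfl1, Tmsb10 and Tmsb4x descend, Tpm4 shows no clear order, and Actb values are missing between 13.47 and 14.01.

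Strong relations to Actb were common in these libraries, and the 5 have to be read against that. Over the 3770 other genes of at least 50 CPM, r with Actb had quartiles of -0.70 and 0.57, 27.4% of genes exceeded 0.5 and 37.2% were below -0.5. An r as high as that of Myh9 was found in 7.14% of these genes and one as high as that of Pfn1 in 15.4%. On the negative side, 14.1%, 16.6% and 19.1% of the genes were as low as Tmsb4x, Tmsb10 and Cfl1. Myl6 sat at 35.1%, and Tpm1 and Actg1 near the middle, at 51.8% and 53.8%.

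**Figure D4:**
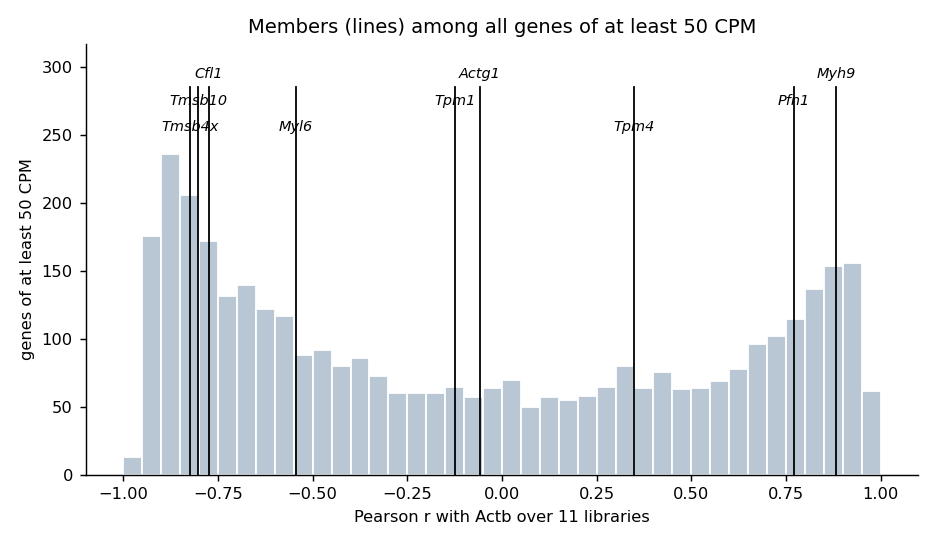
Histogram of Pearson r with Actb over 11 libraries for the 3770 other genes of at least 50 CPM (vertical axis, number of genes), with the 9 other actin cytoskeleton genes as vertical lines. The distribution has its peaks near both ends, and the lines for Cfl1, Tmsb10, Tmsb4x, Pfn1 and Myh9 stand toward these ends, where genes are numerous. Actg1 is marked though its own level is below 50 CPM.

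Actb and Pfn1, the most variable of the 10, also have the longest runs of T in their counted exons, 29 and 20 bases, both in the 3' UTR. Myh9 has a run of 14, Cfl1 of 11, Tmsb4x and Tpm1 of 9, Actg1 of 7, Tpm4 of 6 and Tmsb10 and Myl6 of 4. Over all other genes tested, r with Actb increased with the longest T run. The median r was -0.17 for runs of at most 5 bases (4741 genes), 0.14 for 10 to 14 (2710 genes), 0.49 for 18 to 20 (362 genes) and 0.83 for 26 or more (149 genes, of which 85.9% had a positive r). The genes were counted in the same 11 libraries, so these medians are a description. Single genes with long runs differed. Tpm3 has a run of 27, an r of 0.56 and levels of 199.5 to 264 CPM. Tubb5 has a run of 26, an r of 0.98 and levels of 5677 to 10933 CPM.

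Each library was given an index, the mean longest T run per read with the 10 genes left out. It was 9.84, 9.48, 9.84, 9.73 and 9.05 bases in controls 1 to 5 and 9.12, 8.53, 8.94, 8.94, 9.41 and 9.12 in mutants 1 to 6. The 5 libraries with the highest index were the 5 with the highest Actb. Controls 1 to 4 also had a higher index than every mutant, so the index overlaps with genotype. A smaller genotype difference in a fit that holds both cannot tell them apart. With the index as a covariate in the edgeR fit, the Actb log2 difference was -0.16, that of Pfn1 0.08 and that of Myh9 0.14. The differences were then 0.08 for Tmsb4x, -0.06 for Tmsb10, -0.05 for Myl6 and -0.04 for Cfl1. Others moved away from 0, with Tpm1 at -0.55 (from -0.15), Actg1 at -0.17 (from -0.11) and the targeted gene Gmnn at -1.03 (from -0.67). As before, 0 of 9 passed. What sets the index in a library was not tested.

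**Figure D5:**
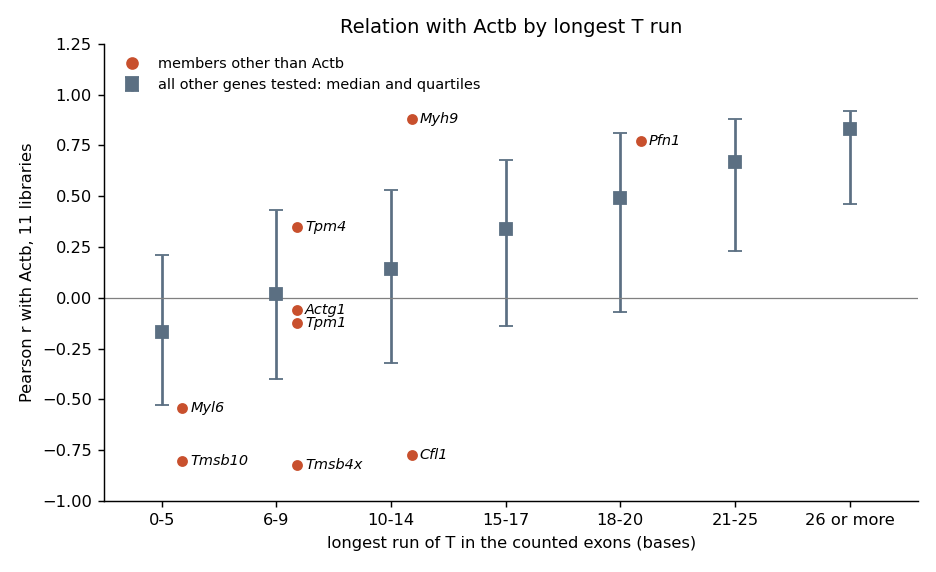
Pearson r with Actb over 11 libraries (vertical axis) by longest run of T in the counted exons (horizontal axis, bases, binned). Squares and bars give the median and quartiles of all other genes tested and red points the 9 actin cytoskeleton genes. The medians climb from -0.17 to 0.83, Pfn1 lies inside the quartiles of its bin, and Myh9 lies above and Cfl1, Tmsb10, Tmsb4x and Myl6 below those of theirs.

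The 5 genes whose level was most like that of Actb, among genes of at least 50 CPM, were Gbas (r = 0.994), a mitochondrial protein gene, Wtap (r = 0.992), a subunit of the RNA m6A methyltransferase complex, Hsf2 (r = 0.991), a heat shock factor, Dctn4 (r = 0.989), a dynactin subunit, and Alkbh5 (r = 0.989), an m6A demethylase. None is one of the cytoskeleton genes listed here. Wtap, Hsf2, Dctn4 and Alkbh5 have T runs of 38, 29, 22 and 41 bases, and no run was matched to Gbas. All 5 were called lower in mutants, as were 1.48% of all genes tested. Their log2 differences were -1.43 for Wtap, -1.31 for Alkbh5, -1.13 for Hsf2, -0.78 for Dctn4 and -0.61 for Gbas (edgeR adjusted p of 0.0406 to 0.0462). The 5 were picked for likeness to Actb, itself lower in mutants, over these same libraries. Such calls follow from the choice and are given as a description. Their highest library was 2.42 (Gbas) to 7.41 (Wtap) times the lowest. After the T-run index was added to the fit, 0 of the 5 passed, and with 1 library left out the calls held without control 5 and, except for Wtap, without mutant 2.

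A further 69 genes of the actin pathway in 7 lists were all tested, and 9 passed, 6 higher and 3 lower in mutants, where 2.18% of all genes passed (0.702% higher, 1.48% lower). The median log2 difference was 0.05 against 0.0038 for all genes. Leaving out any 1 library other than control 5 or mutant 2 lowered this count from 9 to 0, or to 1 without control 2. It was also 0 without the litter block and 0 after the T-run index was added to the fit. Of the actins of muscle, 2 of 4 were called lower in mutants. They were Acta1, skeletal alpha-actin (log2 difference -3.78, SE 0.69, edgeR adjusted p = 0.0353), and Actc1, cardiac alpha-actin (-2.59, SE 0.57, adjusted p = 0.0464). Acta1 was at 4.75, 1.49, 0.545, 0.523 and 26.1 CPM in controls 1 to 5 and at 0.178 to 0.537 CPM in mutants. Actc1 was at 17.4, 40.98, 2.34, 1.69 and 30.1 CPM in controls 1 to 5 and at 1.64 to 3.82 in mutants. Controls 1, 2 and 5 were thus the high ones, and controls 3 and 4 lay at or near the mutants. Without control 5 the difference was -2.07 for Acta1 (adjusted p = 0.0611) and -1.91 for Actc1 (adjusted p = 0.106). Acta1 had 3 to 8 reads per mutant library and passed the filter on low counts through the controls, so its call is given as a description only. The 9 skeletal muscle markers, which include both genes, summed to 55.1 to 152 CPM in controls, highest in control 5, and to 57.3 to 80.4 CPM in mutants. The part of muscle cells in the Acta1 and Actc1 differences was not tested.

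Regulators of filament turnover and assembly gave single calls, all higher in mutants. In the turnover list 1 of 12 passed, Cotl1, coactosin-like protein, with controls at 56.0 to 68.7 CPM, mutants at 73.4 to 92.6 CPM and a log2 difference of 0.36 (SE 0.08, edgeR adjusted p = 0.0468). In the Arp2/3 complex, which nucleates branched filaments, 1 of 9 passed, Arpc1b (0.37, SE 0.08, adjusted p = 0.0454), although 8 of 9 subunits had a positive difference, with a median of 0.06. Among 18 capping, elongation and crosslinking genes 1 passed, Vasp, a filament elongation factor (0.35, SE 0.07, adjusted p = 0.0454), at 31.8 to 38.0 CPM in controls and 41.4 to 46.3 in mutants. The medians of the turnover and capping lists were both 0.01.

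Of the 10 genes of the Srf and Mrtf list, Zyx, the focal adhesion protein zyxin and a known Srf target, rose (0.36, SE 0.06, edgeR adjusted p = 0.0353), from 75.1 to 93.7 CPM in controls to 95.3 to 126 in mutants. Mkl2, the cofactor Mrtf-B, fell (-0.52, SE 0.11, adjusted p = 0.0468) and followed Actb with r = 0.90. Cotl1, Vasp and Zyx had groups that did not overlap, with mutants above controls, which 1.29% of all genes showed.

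No gene passed among the other 6 non-muscle myosin and tropomyosin genes. Those with the smallest p were Myl12a, a myosin regulatory light chain (0.18, SE 0.08, edgeR adjusted p = 0.246), and Tpm3 (-0.12, SE 0.07, adjusted p = 0.329). Their groups overlapped, with Myl12a at 395 to 511 CPM in controls and 454.5 to 593 in mutants, and Tpm3 at 239 to 254 and 199.5 to 264 CPM.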

How the data were processed

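The deposited table holds 1 raw count per gene name and library, made by the authors with featureCounts 1.4.6-p4 on mm10 with the GENCODE M9 annotation and a mapping quality of at least 10, per the file headers. Reads were aligned with STAR 2.5.4b, per the submitters' processing notes. RNA was depleted of ribosomal RNA, per the labels' protocols. The header lists 12 alignment files and the table has 11 sample columns, all used. Reads were counted without strand, and reads shared by several genes or places were left out by default, per the options in the header.

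Counts were tested with edgeR 4.0.16 (R 4.3.3; filterByExpr, TMM scaling, quasi-likelihood F test, two-sided) with litter as a block and genotype, Benjamini-Hochberg adjustment over 15821 genes and a threshold of 0.05. The filter kept 99.9% of the counts. Log2 CPM used a prior count of 2. The common coefficient of biological variation was 16.3%. The test was checked on simulated data. T runs and exon overlaps come from GENCODE transcripts placed in the exons of the counted table. A longest T run could be matched to 96.6% of the tested genes. TPM used the exon length in the table.

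Pairing comes from the titles and the design text. Deviations from group means correlated at -0.16 to 0.37 (median 0.13) over 8 pairs of libraries of 1 litter and -0.33 to 0.17 (median -0.02) over 22 pairs of different litters. No pair of libraries within a group was alike to within sampling noise (over 25 pairs, chi-square per degree of freedom was 7.04 or more).

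The members and lists were chosen with earlier results of these data known. The text names the 10 genes, Gmnn, list genes past the threshold (up to 6 per list, or the 2 of smallest p), reference genes, and the 5 genes most like Actb (Xist, Y-linked and predicted genes left out). The single genes of 1 of the 7 lists and 1 reference gene are not reported here, though the counts over all lists and reference genes include them. Alternatives were other scalings and filters, DESeq2 1.42.0, limma-voom (limma 3.58.1), no block, removal of abundant RNA classes, T-run corrections, and leaving out each library or litter.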

Additional observations from a re-analysis of the deposited data

Results flagged for a closer look

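Values far from the rest of their group were looked for in 47 measures, in 94 groups of 5 or 6 libraries, where chance flags about 1 in 20 groups (4.7 here). There were 7. Actb in mutant 5 was the highest of the mutants at 14.01 log2 CPM, 16444 CPM against 11339 in the next mutant. In control 5 there were 4: Mkl2 was low at 5.98 log2 CPM (62.9 CPM against 88.3 in the next control), Tubb5 was low at 12.74 (6834 against 9825 CPM), Dctn4 was low at 6.61 (97.5 against 195 CPM) and Pgk1, a glycolysis enzyme, was high at 6.37 (82.7 against 61.4 CPM). Hprt, a purine salvage enzyme, was low in mutant 1 at 7.68 log2 CPM (206 against 242 CPM). Haemoglobin genes took 5.443% of the counts of mutant 2, against 2.762% in the next mutant.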

How the results depend on the processing

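Of the 9 genes other than Actb, the count past the threshold was 0 in the fit reported, 2 without a filter on low counts (Pfn1 and Tmsb4x), 1 with DESeq2 (Tmsb4x), and 0 under the other alternatives, which include leaving out each library or litter and the fit with no replicate block. The 9 calls in the 7 cytoskeleton lists became 16 without the filter, 0 with no replicate block, 0 with the T-run index added, 3 when genes whose T run reaches 15 were removed, 0 without litter A, B or C, 1 without litter D, and 0 to 9 with 1 library left out. Over all genes the 345 calls became 1566 without the filter, 550 at 1 CPM in at least 5 libraries, 1194 with DESeq2, 16 with no replicate block, 3 with the T-run covariate, 109 with T-run genes removed, 9, 3, 1 and 148 without litters A, B, C and D, and 1 (without control 4 or mutant 5) to 850 (without control 5) with 1 library left out. Of the 9, 1 passed for the genotype by litter term and 1 for the litter term without the filter, against 0 and 0. The 5 relations to Actb became 3 after litter and genotype means were removed, 7 with litter as a replicate block (litter means removed; Myl6 and Tpm4 added), and 5 to 6 with 1 library left out. The counts of 3 and 7 may be too high, because p-values after removal of means are too small, as described with the relations. The CV of Actb stayed between 38.5% (upper-quartile scaling) and 43.0%. The cause of these changes was not tested.

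Some signs turned. With the T-run covariate the log2 difference was 0.075 for Pfn1, 0.143 for Myh9, 0.035 for Tpm4, -0.044 for Cfl1, -0.064 for Tmsb10, -0.051 for Myl6, -0.072 for Myl12a, -0.065 for Tuba1b, -0.122 for Ppia, -0.162 for Hprt, -0.077 for Rplp0 and -0.117 for Pgk1. Upper-quartile scaling, which moved the median of all genes to 0.04, gave 0.003 for Tpm4, 0.022 for Gapdh and 0.001 for Eef1a1, and an r with Actb of -0.18 for Tpm4. Cfl1 was at -0.001 without litter A. Gapdh was at 0.008 with no replicate block, 0.108 without litter D and -0.059 to 0.107 with 1 library left out, and Pgk1 was at -0.029 without litter B and -0.029 to 0.098 with 1 library left out. The r of Actg1 was 0.24 under the replicate block and -0.227 to 0.106 with 1 library left out, and that of Tpm1 -0.394 to 0.099. Depth limited Actg1, counted at 54 to 89 reads per library, and Acta1, at 3 to 8 in the mutants.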
